A study of Caenorhabditis elegans with 2 samples.

Results

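The interval of chromosome IV from 4.5 to 7.0 Mb, coordinates on ce11, is one of the regions of the Caenorhabditis elegans genome in which piRNA genes are clustered. It was examined in chromatin immunoprecipitation sequencing (ChIP-seq) of SNPC-1.3. Members were the regions of the deposited pooled list whose summit, the position of strongest signal within a region, lay in the interval. There were 865 such regions of 30000 in all, here called candidates. The list was deposited as peaks and background together, so a candidate need not be a site of binding. Of the 865 candidates, 55 were also in the deposited list of 1676 regions reproducible between the replicates by their irreproducible discovery rate (IDR). These are the IDR peaks, which make up 5.59% of all candidates of the series. The interval holds 2816 annotated piRNA genes and 482 protein-coding genes. The tagged protein, SNPC-1.3 (F08F3.9) fused at its C terminus to GFP and FLAG, was expressed from a transgenic insertion in strain YL485 and precipitated with an antibody to GFP. Young adult hermaphrodites were used whole, so germline and soma were mixed and cell types cannot be told apart. The labels gave 2 biological replicates of this 1 group, compared with 1 shared control, and no other genotype, sex or stage. Each replicate list and the pooled list held 30000 regions, of which replicate 1 placed 753 and replicate 2 placed 896 in the interval. Read depth is unknown, since the lists carry no read counts.

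Piwi-interacting RNAs of C. elegans (21U-RNAs) are short germline RNAs, mostly beginning with U, that guide the Argonaute PRG-1 to silence transposons and other targets. Most are transcribed by RNA polymerase II from their own small genes, many of which carry an upstream motif centred on GTTTC, and SNAPc, the complex that also recruits polymerases to the genes of small nuclear RNAs (snRNAs) and of the spliced leader (SL) RNA, is needed for their transcription together with PRDE-1, TOFU-4 and TOFU-5. SNPC-1.3, related to the SNAPc subunit 1 of other animals, is known for driving piRNA transcription in the male germline, whereas the worms measured here were hermaphrodites.

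The upstream motif was visible at the piRNA genes of the interval. The 8-base sequence CTGTTTCA lay on the gene strand within the 70 bp before the 5′ end of 1120 of 2816 piRNA genes (39.8%). It occurred in 1.57% of all windows of 70 bp of the interval read on the plus strand and in 1.80% on the minus strand. Its last base was a median of 39 bp from the 5′ end (interquartile range 38 to 40 bp). The core GTTTC was present before 79.8% of the genes, against 12.8% of plus-strand and 13.2% of minus-strand windows, and the annotated RNA began with T in 95.6%. The sequences below show the 3 piRNA genes that have an IDR peak within 250 bp, and then the 5 genes with the strongest other candidates 1 to 100 bp upstream, chosen away from short RNA genes and protein-coding 5′ ends. Each gives 70 bp upstream and then the 21 bases of the piRNA, from the RefSeq genome sequence of WBcel235, the assembly named ce11 in the lists. Capitals mark CTGTTTCA, or GTTTC where the longer sequence was not found.
21ur-5229 (chrIV:5967019-5967109, plus strand): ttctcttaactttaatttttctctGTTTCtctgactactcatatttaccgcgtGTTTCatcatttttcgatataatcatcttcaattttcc
21ur-11261 (chrIV:5364349-5364439, plus strand): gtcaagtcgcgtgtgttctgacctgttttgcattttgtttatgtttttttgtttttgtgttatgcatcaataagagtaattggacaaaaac
21ur-7377 (chrIV:5265097-5265187, minus strand): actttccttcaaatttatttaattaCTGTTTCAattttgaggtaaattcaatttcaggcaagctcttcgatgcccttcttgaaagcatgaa
21ur-3089 (chrIV:5747179-5747269, minus strand): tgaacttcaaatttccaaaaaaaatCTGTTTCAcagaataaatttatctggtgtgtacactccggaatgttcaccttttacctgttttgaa
21ur-6489 (chrIV:5333888-5333978, minus strand): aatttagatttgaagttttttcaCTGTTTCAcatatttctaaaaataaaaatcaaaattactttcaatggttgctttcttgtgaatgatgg
21ur-6078 (chrIV:5580590-5580680, minus strand): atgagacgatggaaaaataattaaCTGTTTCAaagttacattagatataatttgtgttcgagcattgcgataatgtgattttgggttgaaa
21ur-15262 (chrIV:6562579-6562669, plus strand): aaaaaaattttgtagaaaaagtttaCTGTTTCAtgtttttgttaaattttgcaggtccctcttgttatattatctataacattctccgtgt
21ur-14051 (chrIV:6482135-6482225, plus strand): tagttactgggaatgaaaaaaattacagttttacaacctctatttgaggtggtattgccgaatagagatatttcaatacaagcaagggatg
The full motif was found upstream of 21ur-7377 and of 21ur-3089, 21ur-6489, 21ur-6078 and 21ur-15262. Neither it nor its core was found in the window before 21ur-11261 or 21ur-14051.

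The second set shows 80 bp immediately upstream of snRNA, SL RNA and small nucleolar RNA (snoRNA) genes, because most of the IDR peaks at these genes had their summits there. The first 6 genes have an IDR peak within 250 bp, and the last pair, sls-2.12 and T08B6.62, do not. Capitals mark TGTCG, a sequence chosen after these windows were read.
T08B6.64 (chrIV:4880851-4880930, minus strand): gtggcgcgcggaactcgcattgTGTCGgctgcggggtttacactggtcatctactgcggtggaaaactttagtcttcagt
Y73B6A.14 (chrIV:6664556-6664635, minus strand): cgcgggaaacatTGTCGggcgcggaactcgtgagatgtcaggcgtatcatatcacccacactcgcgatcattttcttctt
M03D4.78 (chrIV:6117877-6117956, minus strand): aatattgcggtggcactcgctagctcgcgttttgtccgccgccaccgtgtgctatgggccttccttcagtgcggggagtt
sls-2.13 (chrIV:5063532-5063611, minus strand): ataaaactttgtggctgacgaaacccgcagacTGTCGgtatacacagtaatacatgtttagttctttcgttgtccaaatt
sls-2.17 (chrIV:5317369-5317448, minus strand): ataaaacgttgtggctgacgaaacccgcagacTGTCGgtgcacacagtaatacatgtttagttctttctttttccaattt
Y9C9A.111 (chrIV:4930874-4930953, plus strand): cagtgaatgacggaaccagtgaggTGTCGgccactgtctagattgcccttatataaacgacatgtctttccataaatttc
sls-2.12 (chrIV:5261833-5261912, plus strand): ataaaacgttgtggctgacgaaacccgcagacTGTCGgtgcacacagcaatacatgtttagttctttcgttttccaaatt
T08B6.62 (chrIV:4885650-4885729, minus strand): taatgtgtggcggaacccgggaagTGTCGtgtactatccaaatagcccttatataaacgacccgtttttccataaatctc
TGTCG was present on the gene strand upstream of 5 of the 6 genes with an IDR peak and of 6 of the 12 such genes of the interval without one. Of all windows of 80 bp, 3.95% on the plus strand and 4.03% on the minus strand held it. So did 1.63% of the windows upstream of piRNA genes and 1.66% of those upstream of protein-coding genes. Because TGTCG was picked from the windows of these short RNA genes, its shares there do not measure enrichment. Those windows are also not independent, since some are near copies of each other. GTTTC lay upstream of 2 of the 18 genes and of none of the 6 with an IDR peak. On either strand within 50 bp of the summit, TGTCG was as common at IDR peaks at protein-coding promoters (7 of 26, 26.9%, 11.6 to 47.8%) as at those of other classes (7 of 29, 24.1%, 10.3 to 43.5%). It was present at 10.7% of the other candidates and in 9.73% of all such windows of the interval. The SL RNA windows are nearly identical to each other, with 74 of 80 bases shared between sls-2.13 and sls-2.17 and 77 of 80 between sls-2.12 and sls-2.17.

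The third set shows 101 bp around the summit of the strongest peak of the interval and of 4 more of the 12 strongest IDR peaks. The 4 share GCATTTCG, in capitals on either strand, a sequence also chosen after the windows were read.
Y17G9B.5 and rpl-20 (chrIV:4750033-4750133, plus strand): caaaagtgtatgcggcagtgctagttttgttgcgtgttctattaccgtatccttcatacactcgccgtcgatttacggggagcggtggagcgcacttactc
tebp-2 (chrIV:5541441-5541541, plus strand): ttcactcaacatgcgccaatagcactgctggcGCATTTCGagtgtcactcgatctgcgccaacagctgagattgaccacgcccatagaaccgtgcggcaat
Y73B6A.14 (chrIV:6664407-6664507, plus strand): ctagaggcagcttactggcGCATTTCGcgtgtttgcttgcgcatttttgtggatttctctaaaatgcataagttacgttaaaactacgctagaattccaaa
W03F8.4 (chrIV:5183810-5183910, plus strand): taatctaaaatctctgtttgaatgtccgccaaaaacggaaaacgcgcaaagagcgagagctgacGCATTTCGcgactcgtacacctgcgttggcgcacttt
puf-11 (chrIV:6421316-6421416, plus strand): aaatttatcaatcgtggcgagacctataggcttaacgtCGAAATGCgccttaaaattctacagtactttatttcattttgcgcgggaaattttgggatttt
GCATTTCG was found at 4 of the 55 IDR peaks (7.27%), all 4 among the 12 strongest, and at 0 of the 810 other candidates (exact upper limit 0.454%). It occurred in 0.221% of all windows of 101 bp of the interval. Because the sequence was picked from the windows of the strongest peaks, its shares at those peaks and against the other sets do not measure enrichment. Among the 83 IDR peaks of the other piRNA cluster of chromosome IV, 1 held GCATTTCG (1.2%, 0.0305 to 6.53%).

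IDR peaks made up 6.36% of the candidates of the interval (55 of 865, exact 95% binomial interval 4.83 to 8.20%), against the 5.59% over all 30000 candidates. The counting interval of that share includes the series value. In the list of replicate 1 alone 8.10% of candidates were among its top 1676 (6.25 to 10.3%), which lies above 5.59%, and in that of replicate 2 alone 5.69% were (4.27 to 7.42%), which includes it. In this series the IDR peaks were exactly the 1676 pooled regions of highest signal, so that IDR peaks and other candidates are the strong and the weak regions of the same list. The interval held 346 candidates and 22.0 IDR peaks per Mb. The other piRNA cluster of the chromosome, from 13.5 to 17.2 Mb, has 3078 piRNA genes per Mb against 1126 here. It held 521 candidates per Mb and, with 83 IDR peaks, 22.4 IDR peaks per Mb, or 4.31% of its candidates. The rest of the chromosome held 328 candidates and 18.2 IDR peaks per Mb, and the other nuclear chromosomes 284 and 15.8. Each replicate list alone gave a similar number of strong regions, with 61 of the top 1676 regions of replicate 1 and 51 of those of replicate 2 in the interval (mean 56 ± 7.07, SD, n = 2).

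The strong regions of the interval lay mostly at protein-coding promoters and short RNA genes, and few were at piRNA genes. Each candidate was given a single class, first for a short RNA gene within 250 bp of the summit, then for a piRNA gene within 250 bp, then for a protein-coding 5′ end within 500 bp, then for a gene body. Of the 55 IDR peaks, 26 were at protein-coding promoters (47.3%, 33.6 to 61.2%), 16 were at short RNA genes, 5 in gene bodies, 7 at none of these and 1 at a piRNA gene. Of the 810 other candidates, 294 were at piRNA genes (36.3%, 33.0 to 39.7%), 235 in gene bodies, 120 at promoters, 49 at short RNA genes and 112 at none. The class of piRNA genes leaves out candidates that are also near a short RNA gene. Counted without that order, 38.1% of the other candidates (34.8 to 41.6%) were within 250 bp of a piRNA gene, against 34.6% of all bases of the interval. The strongest other candidate in the piRNA class had a signal of 27.46, in the unit of the authors' peak caller, and rank 3172 of the pooled list.

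**Figure D1:**
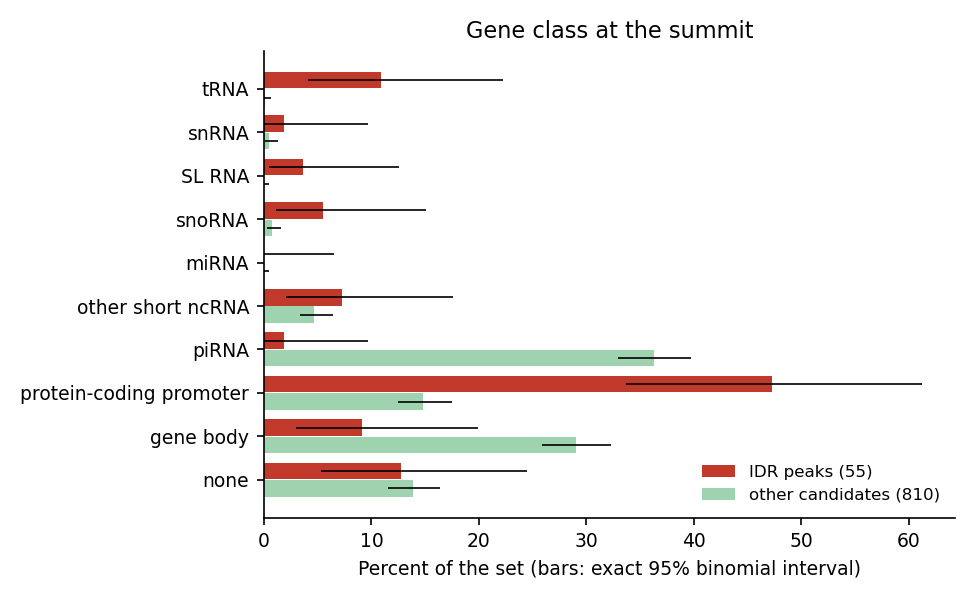
Percent of the 55 IDR peaks and of the 810 other candidates of the interval in each gene class (horizontal bars, with exact 95% binomial intervals that cover counting error only). Promoters are the commonest class of the IDR peaks at 47.3%, and piRNA genes the commonest of the other candidates at 36.3%. Without the order of classes, 38.1% of the other candidates lie within 250 bp of a piRNA gene, against 34.6% of all bases.

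**Figure D2:**
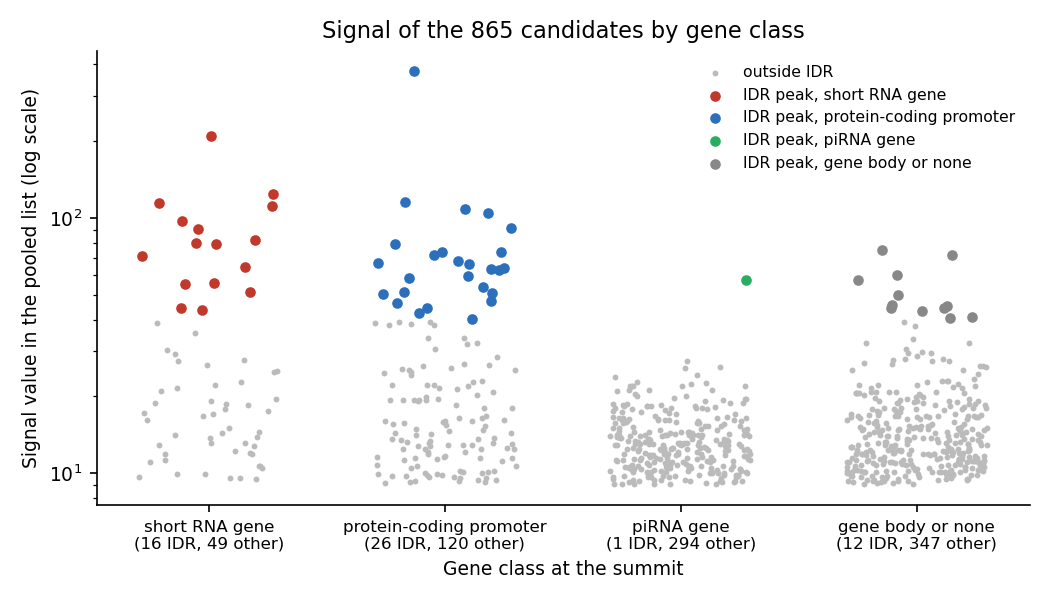
Signal value in the pooled list (log scale) of each candidate, by gene class at the summit, with horizontal jitter for legibility; large coloured points are IDR peaks and small grey points other candidates. A single IDR peak falls in the piRNA class, at 56.91, and the other 294 candidates there reach at most 27.46.

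Of the short RNA genes, most of the tRNA genes had an IDR peak. Of 9 tRNA genes in the interval, 6 had an IDR peak within 250 bp (66.7%, 29.9 to 92.5%), against 57.0% of all nuclear tRNA genes. tRNA genes are transcribed by RNA polymerase III from promoters inside the gene. The strongest, B0350.t1 for tRNA-Lys (chrIV:5967160-5967232), had a signal of 124.5 and ranked 187 in replicate 1 and 101 in replicate 2. Y4C6B.t1 for tRNA-Gln followed at 82.28, with rank 177 in replicate 1 and 699 in replicate 2. C43G2.t1 for tRNA-Leu had 79.63 and ranks 753 and 335. These 3 peaks were in the top 1676 of both replicates. Y73B6BL.t1 for tRNA-Val, in an intron of tyr-6, had 70.82 with ranks 963 and 338. C09B9.t1 for tRNA-Lys, in an intron of C09B9.1, had 54.96, with rank 4145 in replicate 1 and 976 in replicate 2. Y4C6B.t2 for tRNA-Trp had 51.1, with ranks 2720 and 1267, so the last pair was in the top regions of replicate 2 alone. All 6 of these tRNA genes have identical copies elsewhere in the genome, from 2 sequences in all for C43G2.t1 to 25 for B0350.t1, and the 3 tRNA genes without an IDR peak have a single copy. The sources used here do not say how reads from identical copies were placed, and the part of this in the tRNA signal was not tested.

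At snoRNA genes, whose RNAs guide chemical modification of other RNAs, 3 of 10 had an IDR peak (30.0%, against 25.4% of nuclear snoRNA genes). T08B6.64 (chrIV:4880738-4880850, minus strand) had the second highest signal of the interval, 209.0, with rank 44 in replicate 1 and 38 in replicate 2, and its summit was 43 bp upstream of the 5′ end. Y73B6A.14, in an intron of Y73B6A.1, had 111.6 with ranks 285 and 159 and a summit 98 bp downstream of the 5′ end. M03D4.78 had 97.74 with ranks 155 and 201, at 105 bp upstream, and this summit was also 234 bp upstream of zen-4, which encodes a kinesin of cell division. All 3 were strong in both replicates. Another 5 snoRNA genes had a weaker candidate, from 13.86 at K08F11.8 to 38.85 at C06E7.95, and 2 had none.

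SL RNA genes supply the leader that is trans-spliced onto many nematode mRNAs, and 2 of the 3 in the interval had an IDR peak, against 46.7% of nuclear SL RNA genes. sls-2.13 (chrIV:5063422-5063531) had 90.52, rank 958 in replicate 1 and 334 in replicate 2, with its summit 70 bp upstream. sls-2.17 (chrIV:5317260-5317368) had 79.41, ranks 225 and 571, with its summit 58 bp upstream. sls-2.12, whose upstream sequence differs from that of sls-2.17 at few bases, had no candidate. Of 5 snRNA genes, Y9C9A.111 in an intron of Y9C9A.8 had an IDR peak (64.04, ranks 491 and 887) 27 bp upstream of its 5′ end, against 32.3% of nuclear snRNA genes. T08B6.62 followed outside the IDR list at 35.35, with rank 1030 in replicate 1 and 6501 in replicate 2. The sequences of these 2 snRNA genes each occur 17 times in the genome, so their signals are uncertain. None of the 9 microRNA genes had a candidate, while 6.13% of nuclear microRNA genes had an IDR peak. Of 235 other annotated non-coding RNA genes of up to 500 bp, 11 had an IDR peak (4.68%, against 4.98% of such nuclear genes). Some of these genes share their peak with a tRNA gene or with each other. The strongest that lay at no tRNA gene was H34C03.18 (chrIV:6756243-6756442), at 114.2 with ranks 195 and 163. Its summit, at position 6756638, was 395 bp downstream of the 5′ end and beyond the 3′ end of the gene.

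Protein-coding promoters held the strongest peak of the interval. It lay at chrIV:4749964-4750177, outside any gene, 157 bp upstream of Y17G9B.5 and 305 bp upstream of rpl-20, a gene for a protein of the large ribosomal subunit. Its signal was 375.4, with rank 21 in replicate 1 and 20 in replicate 2. The next was 136 bp upstream of tebp-2, which encodes a telomere-binding protein, at 116.0 with ranks 97 and 254. W03F8.4 followed at 108.3 with ranks 243 and 111. puf-11, a gene for an RNA-binding protein of the Pumilio family, had 104.2 with ranks 455 and 136. rps-25, for a protein of the small ribosomal subunit, had 91.46 with ranks 304 and 248. These 5 were among the 12 strongest IDR peaks and strong in both replicates, and the other 7 of the 12 were at short RNA genes. In all, 30 of the 55 IDR summits were within 500 bp of a protein-coding 5′ end (54.5%, against 54.0% of all IDR peaks of the series), 26 of them upstream of the nearest one. At 8 IDR peaks the summit was upstream of more than one coding gene. Many C. elegans mRNAs are trans-spliced, so an annotated 5′ end can lie downstream of the transcription start.

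Further promoters with IDR peaks, named after their values were seen, belonged to genes of several functions. hrpf-2, for an RNA-binding protein, shared its peak with the collagen gene bli-6 (78.75, rank 2867 in replicate 1 and 219 in replicate 2). rme-2, for the yolk receptor of oocytes, had 73.79 with ranks 428 and 619. sqd-1, for an RNA-binding protein, had 67.92 with ranks 1419 and 437. ubc-9, for the SUMO-conjugating enzyme, had 63.78 with ranks 802 and 983, and ruvb-2, for an ATPase of chromatin complexes, had 62.76 with ranks 1031 and 720. Apart from the peak of hrpf-2, these were in the top 1676 of both replicates. Of the 482 protein-coding genes of the interval, 40 had an IDR peak within 500 bp (8.30%), against 5.94% of nuclear protein-coding genes.

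Of the 55 IDR summits, 3 were within 250 bp of a piRNA gene (5.45%, 1.14 to 15.1%), and each of the 3 was also near another kind of gene. The first was the tRNA peak at B0350.t1, whose summit was 128 bp downstream of the 5′ end of 21ur-5229 and 57 bp inside the tRNA gene. The second, at chrIV:5364214-5364489, was 67 bp upstream of 21ur-11261 and also 46 bp upstream of hda-6, a histone deacetylase gene, and 207 bp upstream of F41H10.4. It had a signal of 56.91 and ranked 1588 in replicate 1 and 871 in replicate 2. The third, at chrIV:5264814-5265089, was 165 bp downstream of the 5′ end of 21ur-7377 and 48 bp downstream of that of the non-coding RNA gene F36H12.65, at 43.52 with ranks 999 and 911. No IDR peak was near a piRNA gene without a short RNA gene or a coding 5′ end beside it. The window before 21ur-11261, printed above, had no GTTTC, and that before 21ur-7377 had the full motif. Counted by gene, 3 of 2816 piRNA genes had an IDR peak within 250 bp (0.107%, 0.0220 to 0.311%), against 0.338% of all 15363 nuclear piRNA genes. In the other cluster of the chromosome 18 of 83 IDR peaks were within 250 bp of a piRNA gene (21.7%, 13.4 to 32.1%), where such positions make up 62.0% of all bases.

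Outside the IDR list, candidates of the pooled list lay near piRNA genes slightly more often than the bases of the interval do. Those of each replicate alone did so about as often as the bases. Of 810 other candidates, 309 had their summit no more than 250 bp from a piRNA gene (38.1%, 34.8 to 41.6%), while 34.6% of all bases did. In each replicate's own list, without its top 1676 regions, the share was 34.0% in replicate 1 (30.4 to 37.6%) and 36.2% in replicate 2 (33.0 to 39.6%), with a mean of 35.1 ± 1.59% (SD, n = 2). The counting interval of the pooled share lay just above the share of bases, and those of the separate replicates included it. With the narrower of the other windows tried the other candidates stood at 26.3% (23.3 to 29.5%) against 21.7% of bases. Within 500 bp they stood at 49.4% (45.9 to 52.9%) against 47.8%. In the other cluster the share was 73.4% (71.3 to 75.4%) against 62.0% of bases.

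Position relative to the strand of the piRNA gene was measured from the summit to the nearest annotated 5′ end. Of the other candidates within 250 bp, 166 were upstream and 130 downstream, so 56.1% were upstream (50.2 to 61.8%), against 50.2% of bases. The separate replicates, below their top regions, gave 51.7% (45.1 to 58.3%) and 51.0% (45.2 to 56.8%), or 51.4 ± 0.512% (SD, n = 2), both including the value of the bases. Within 100 bp the pooled list had 100 upstream and 72 downstream (58.1% upstream, 50.4 to 65.6%). Replicate 1 had 67 and 57 (54.0% upstream, 44.85 to 63.0%), whereas replicate 2 had 79 upstream and 92 downstream (46.2%, 38.6 to 54.0%). The replicates differed in direction, but both of their counting intervals included the 50.3% of bases.

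The upstream positions of the pooled list were most frequent from 100 to 51 bp before the 5′ end. Of the other candidates 52 lay there (6.42%), against 3.99% of bases. The nearest piRNA gene carried CTGTTTCA for 34 of the 52. For these motif-bearing genes the share was 4.20% of other candidates against 1.61% of bases, and for genes without the motif it was 2.22% against 2.38%. In the same 50 bp before motif-bearing genes, replicate 1 had 13 regions (1.88%) and replicate 2 had 19 (2.25%). The high share was thus seen in the pooled list and was lower in either replicate alone. In replicate 2 the most frequent positions were instead 0 to 49 bp downstream of the 5′ end, with 60 regions (7.10%, against 4.48% of bases), and replicate 1 had 4.62% there.

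**Figure D3:**
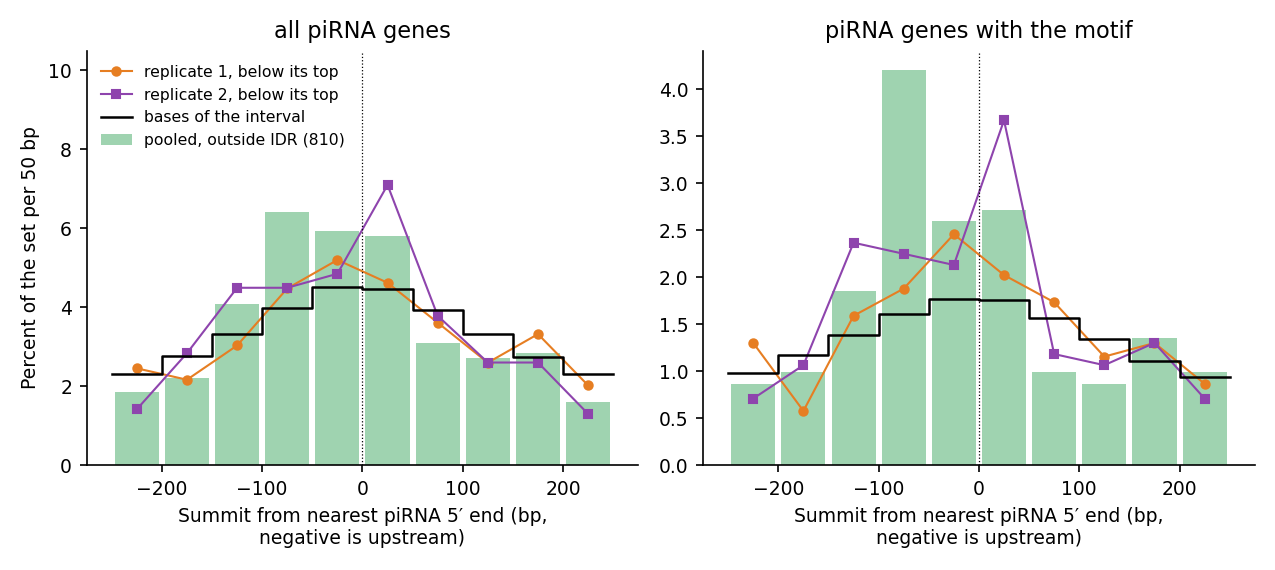
Percent of each set of regions by position of the summit from the nearest piRNA 5′ end, in steps of 50 bp (negative is upstream), for all piRNA genes (left) and those with CTGTTTCA within 70 bp upstream (right, with its own vertical scale). Bars are the 810 other candidates of the pooled list, lines each replicate's list without its top regions, and the black step the bases of the interval; the bar from 100 to 51 bp upstream stands at 6.42% on the left and 4.20% on the right, above both replicates.

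Away from short RNA genes and protein-coding 5′ ends, the 5 strongest upstream candidates ranked 4670 to 5413 in the pooled list. Most of them were uneven between replicates. A stronger candidate, named after its values were seen, lay 86 bp upstream of 21ur-9348 but also at the snoRNA gene C06E7.95. Its signal was 38.85, with pooled rank 1746 and ranks 2698 in replicate 1 and 1743 in replicate 2. The candidate 91 bp upstream of 21ur-3089 had a signal of 22.67, rank 4670 in the pooled list, was absent from replicate 1 and ranked 4707 in replicate 2. The one 82 bp upstream of 21ur-6489, in an intron of Y4C6B.3, had 22.29 with rank 10271 in replicate 1 and 14967 in replicate 2. The one 27 bp upstream of 21ur-6078 had 21.95, was absent from replicate 1 and ranked 2683 in replicate 2. None of these 3 was among the top 1676 regions of a replicate. The candidate 65 bp upstream of 21ur-15262, in an intron of best-9, had 21.92 with ranks 7505 and 15602. The one 100 bp upstream of 21ur-14051, in an intron of tyr-6, had 21.25 with ranks 23137 and 2711. The deposited −log10 q-values of these 5 ran from 1.15 at 21ur-3089 down to 0.974 at 21ur-14051. That of the IDR peak of lowest signal, at fem-1, was 3.04. These values did not separate the IDR list strictly. An IDR peak in an exon of sqd-1 had 2.955, and the candidate at T08B6.62, outside the IDR list, had 3.131. In all 86 other candidates were 1 to 100 bp upstream and away from short RNA genes and protein-coding 5′ ends. By gene, 73 of the 1120 piRNA genes with the motif (6.52%, 5.14 to 8.13%) and 68 of the 1696 without it (4.01%, 3.13 to 5.06%) had a candidate 1 to 100 bp upstream. Downstream, at 0 to 99 bp, the shares were 3.84% and 3.42%.

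CTGTTTCA itself, on either strand within 100 bp of the summit, was present at 127 of the 865 members (14.7%, 12.4 to 17.2%) and in 9.96% of all such windows of the interval. It was present at 1 of the 55 IDR peaks (1.82%) and at 109 of the 309 other candidates near piRNA genes (35.3%, 29.9 to 40.9%). The 9.96% covers windows near and away from piRNA genes alike. The share of windows near piRNA genes was not measured. In the whole interval 249030 such windows held CTGTTTCA, and 863728 bases lay within 250 bp of a piRNA gene. Even if all 249030 windows were centred on those bases, the share there would be below 35.3%. The 39.8% of these genes with the motif upstream refers to 70 bp on the gene strand and is not that share. Away from piRNA genes 17 of 501 other candidates held CTGTTTCA (3.39%, 1.99 to 5.38%). Of all nuclear candidates, which include those of both piRNA clusters, 2.92% held it. Outside the clusters the share was lower, 1.59% in the rest of chromosome IV and 0.954% on the other nuclear chromosomes. Below the top regions, 9.68% of the regions of replicate 1 and 13.6% of those of replicate 2 held it, so replicate 1 stood at the level of all windows and replicate 2 above it. Base composition moved with these sets. The median GC content within 100 bp of the summit was 37.3% for the IDR peaks, 33.8% for other candidates away from piRNA genes and 28.9% for those near them. The same median was 33.3% over all bases of the interval and 30.3% over bases within 250 bp of a piRNA gene. The part of base composition in the position of the weak candidates was not tested.

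The replicates shared the strong regions and few of the weak ones. Every IDR peak overlapped a region in both replicate lists by at least 1 bp, which the IDR procedure, run on those lists, favours. Of the 55, 37 were in the top 1676 of both replicates, 7 of replicate 1 alone and 11 of replicate 2 alone. Of the 810 other candidates, 242 were found in both lists (29.9%, 26.7 to 33.2%), 131 in replicate 1 alone, 348 in replicate 2 alone and 89 in neither. Among those near piRNA genes 64 of 309 were in both lists (20.7%, 16.3 to 25.7%), and among those away from piRNA genes 178 of 501 (35.5%, 31.3 to 39.9%). The regions of replicate 1 below its top that lay 1 to 100 bp upstream of a piRNA gene were found in replicate 2 for 19 of 67 (28.4%), against 188 of 457 away from piRNA genes (41.1%). In the other direction 16 of 79 were found (20.3%), against 193 of 539 (35.8%). For members in both lists, Spearman's rho between the ranks was 0.51 over the 55 IDR peaks, 0.32 over the 178 other candidates away from piRNA genes and 0.14 over the 64 near them. These are descriptions across regions, which share the control and are not independent samples.

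**Figure D4:**
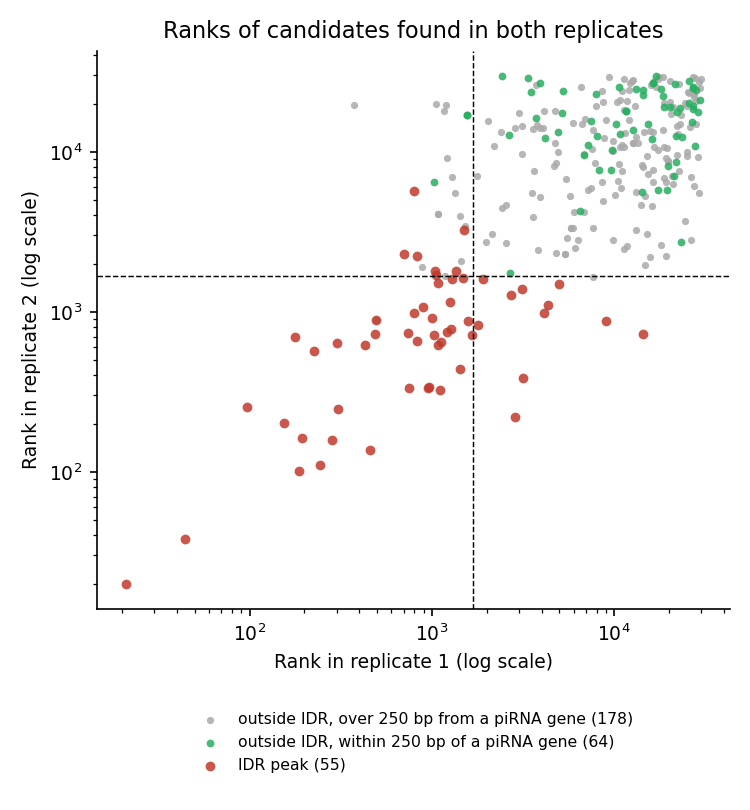
Best rank of an overlapping region in replicate 1 (horizontal) and replicate 2 (vertical), both on log scales, for the 297 candidates found in both lists; dashed lines mark rank 1676. IDR peaks (red) fill the lower left, with 37 of 55 inside both lines, and candidates near piRNA genes (green, 64) lie with the other weak candidates (grey, 178) at the upper right.

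Some IDR peaks were uneven between the replicates. The peak at the promoters of C01B10.9 and cest-5.1, named after its values were seen, ranked 14348 in replicate 1 and 723 in replicate 2. The weakest IDR peak, 42 bp inside fem-1, a sex determination gene that promotes male development, had a signal of 40.18 and ranked 799 in replicate 1 and 5692 in replicate 2. The next weakest were an exon of anat-1 at 40.43 (ranks 4974 and 1496) and an intergenic region near perm-3 at 40.76 (ranks 4330 and 1097). The strongest candidates outside the IDR list were close in signal. They were at rfth-1 (39.15, ranks 2149 and 3068), near T22D1.3 (39.12, absent from replicate 1, rank 1002 in replicate 2) and at C49A9.10 (39.08, ranks 886 and 1897).

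Along the interval, piRNA genes and IDR peaks had different distributions. The 25 bins of 100 kb held 0 to 220 piRNA genes, 0 to 9 IDR peaks and 16 to 48 other candidates, and 5 bins held no IDR peak. The 9 IDR peaks from 5.3 to 5.4 Mb were the most in a bin, with 118 piRNA genes. In the 4 bins with fewer than 20 piRNA genes 7.86% of candidates were IDR peaks (3.99 to 13.6%), in the 7 bins with 20 to 99 it was 6.99%, and in the 14 bins with 100 or more it was 5.65% (3.78 to 8.06%), with intervals that overlap. Across bins, the number of piRNA genes had a Pearson correlation of 0.87 (Spearman 0.89) with other candidates within 250 bp of a piRNA gene. The coefficient was -0.66 (Spearman -0.56) with other candidates away from piRNA genes, 0.21 with all other candidates and -0.27 with IDR peaks. The first 2 values share a construction, since more piRNA genes leave fewer bases away from one. Coding genes per bin had a correlation of -0.35 with piRNA genes.

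**Figure D5:**
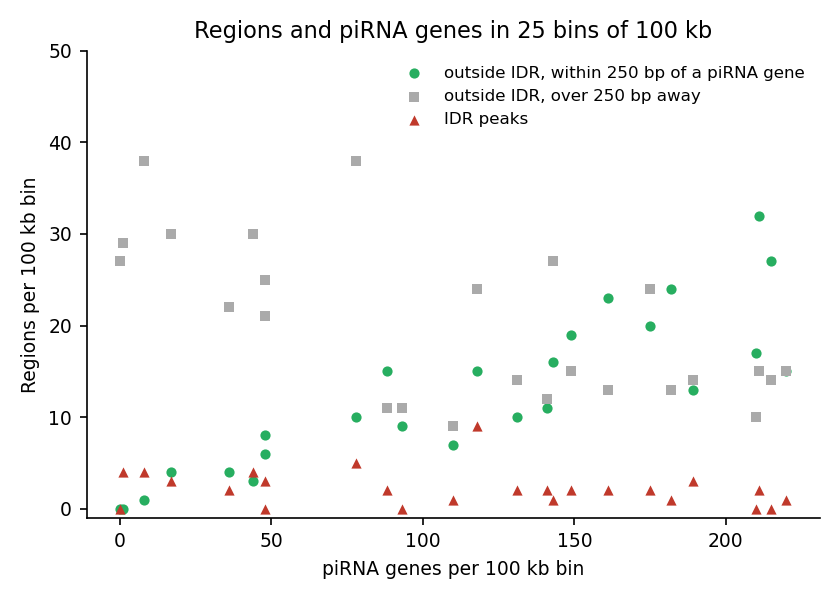
Number of regions (vertical) against number of piRNA genes (horizontal) in each of the 25 bins of 100 kb: other candidates within 250 bp of a piRNA gene (green), other candidates farther away (grey squares) and IDR peaks (red triangles). Green points climb from 0 to 32 with the piRNA genes, grey points are highest where piRNA genes are few, and IDR peaks stay between 0 and 9.

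A list of 13 genes for SNAPc subunits and other factors linked to piRNA transcription was examined, of which 12 were matched in the annotation and snpc-3.3 was not. An IDR peak lay within 500 bp of the 5′ end of 2 of the 12 (16.7%), against 5.94% of nuclear protein-coding genes. With so few genes the list share is uncertain, and it was not tested against that of all genes. Both lie on chromosome III. They were snpc-3.4 (77.38, 22 bp upstream) and snpc-1.2, a paralogue of snpc-1.3 (45.58, 163 bp upstream). Of the list, snpc-3.1 lies in the interval, and the candidate 288 bp upstream of it had a signal of 12.41 and rank 17734, outside the IDR list. Other members had candidates below the IDR list, from 11.44 at snpc-1.1 to 35.38 at attf-6, with prde-1 at 25.47, tofu-4 at 28.72, tofu-5 at 29.37 and the tagged gene snpc-1.3 at 20.11. Only unc-130, which encodes a forkhead factor, had none. The ribosomal protein genes rpl-20 and rps-25 of the interval, both described above, each had an IDR peak.

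At the borders of the interval the candidates were weak. The first 2 inside the lower border, in gbb-2 and 80 bp upstream of it, had signals of 12.36 and 12.4, and the last 2 outside it had 11.41 and 15.1. Inside the upper border the signals were 16.43, 2 bp upstream of 21ur-15247, and 9.632, 119 bp downstream of the 5′ end of 21ur-870. The first 2 beyond it had 11.94 and 14.77. None of these was an IDR peak.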

How the data were processed

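Samples were grouped by the labels into 1 group of 2 biological replicates, so no groups were compared and no p-value is given. The authors called regions from the alignments of each replicate, and again from both together, each time with the same 1 control, and derived the IDR peaks from these lists, per the notes deposited beside them. The aligner, peak caller and IDR threshold were not given in sources used here. Depth per sample is unknown. The deposited lists give a signal value per region in the caller's unit, used here to rank regions within a list only, and a −log10 q-value, which the authors deposited and which was not used further. The deposited coordinates (starts, ends and summit offsets, ce11) were converted to 1-based positions.

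Regions were compared with genes of Ensembl release 115 and with RefSeq sequence of the same assembly, WBcel235, using Python 3.11.15, pandas 2.3.3, NumPy 2.4.6 and SciPy 1.17.1; figures were drawn with matplotlib 3.10.9. RNA genes were matched within 250 bp, coding 5′ ends within 500 bp, motifs within 100 bp of the summit, or within 50 bp for the 2 sequences chosen after the windows were read. Names of short RNA genes, matched by WormBase ID, and tRNA products are those of RefSeq. Shares have exact 95% binomial (Clopper-Pearson) intervals that cover counting error only, and regions are not replicates. Signed distances and overlaps were tested on simulated data. Named regions were the 12 strongest IDR peaks, every IDR peak within 250 bp of a piRNA gene, and up to 5 loci per short RNA class. They also included the 5 strongest other candidates 1 to 100 bp upstream of piRNA genes, away from short RNA genes and coding 5′ ends. The 3 weakest IDR peaks, 3 strongest other candidates, 2 regions on each side of each border, and list members were named too. The upstream windows of short RNA genes were added after seeing the data. The members and lists were chosen with earlier results of these data known.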

Additional observations from a re-analysis of the deposited data

How the results depend on the processing

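Of 40 comparisons of 9 results with alternatives, 22 kept their value within 1.5 times, for counts, or within the counting interval, for shares. With only the IDR peaks at or above the median signal of their list, 31 were in the interval (3.58% of candidates), 17 at promoters and 1 near a piRNA gene. The share of candidates near piRNA genes was 24.9% with the narrower window, 47.2% within 500 bp and 26.6% by overlap of the region with the gene, against 36.1% as defined, and the windows themselves differ in size. IDR peaks near piRNA genes numbered 8 within 500 bp, at 9 genes, and 1 by overlap, at 1 gene. Motif shares were 8.09% within 50 bp and 59.5% for GTTTC within 100 bp. The shares of all windows of the interval under these settings were not measured, so neither value shows enrichment by itself.

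With 1 replicate's list in place of the pooled list, the interval held 51 to 61 top regions, 5.69 to 8.10% of its candidates. The share near piRNA genes ranged from 31.9 to 34.5%, the top regions near piRNA genes from 3 to 5, at 3 to 5 genes, those at promoters from 24 to 29, the upstream share from 51.0 to 51.7% and the motif share from 8.90 to 12.9%. The upstream shares of the replicates lay below the pooled 56.1%, and their counting intervals include it. Of the shares of top regions, that of replicate 1 (6.25 to 10.3%) lay above the 5.59% of the series, unlike the pooled share, and the cause was not tested. No paired analysis was possible because there is 1 group. Depth is unknown, lists end at a fixed 30000 regions, and absence from a list does not show absence of binding.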
